A study of Mus musculus with 8 samples.

Results

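The chromatin around 9 genes of the Ets family of transcription factors was examined in mouse DN3 thymocytes: Ets1, Fli1, Ets2, Erg, Elf1, Elk3, Etv6, Spib and Gabpa. Accessibility had been measured by ATAC-seq, which uses a transposase to cut DNA and attach adapters where chromatin is not compact, and stretches with many cuts are called as peaks. A member locus was the annotated gene body with 50 kb on either side, and its peaks were all those that overlapped it. Overlapping peaks of the 4 libraries were merged into consensus regions. The loci held 424 of the 180321 regions of the genome (0.235%), and 2 of these regions lay in both the Fli1 and the Ets1 locus. Per library, the loci held 427 of 169255 and 403 of 156372 peaks in wild-type 1 and 2, and 299 of 121022 and 294 of 119023 peaks in mutant 1 and 2.

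The cells were DN3 thymocytes of the C57BL/6 strain. In the 2 wild-type libraries the Notch-Myc enhancer (N-Me), an element through which Notch signalling acts on Myc, was intact. In the 2 mutant libraries both of its GATA sites, named site 1 and site 2, carried homozygous mutations, and the comparison asks how the chromatin differed between these genotypes. No member gene lies on the chromosome that carries Myc and N-Me. The 4 leukaemia samples of the series were not analysed here. The labels give no animal, age or sorting gate for a library, and p-values over libraries therefore measure a spread that may be technical. DN3 cells are immature T cells without CD4 or CD8 that are rearranging and testing the T-cell receptor beta chain.

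Ets factors share a winged helix-turn-helix domain that binds DNA around a GGAA core. In blood they include activators of the lymphoid programme such as Ets1 and Elf1, regulators of stem cells, megakaryocytes and vessels such as Fli1 and Erg, and repressors such as Etv6. Many enhancers of early T cells carry Ets sites next to sites for Runx and GATA factors. A peak at a gene shows open chromatin and is no measure of that gene's RNA.

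The promoter sequences of RefSeq (GRCm38.p6) held 10 windows for 7 of the members, each running from 250 bases before to 50 bases after a start site. The stretches upstream of the gene are given for 5 starts, because they show what lay under the peaks and what did not. All 4 libraries had a peak over the windows of Ets2, Etv6 and Elk3, and none had one over the windows of Spib and of the outermost start of Erg. Each sequence runs 5′ to 3′ on the strand of its gene, with no base in capitals because none of the Ets, GATA, Runx or E-box letters searched for occurs in it.
Ets2, chr16:95702157-95702406, plus strand: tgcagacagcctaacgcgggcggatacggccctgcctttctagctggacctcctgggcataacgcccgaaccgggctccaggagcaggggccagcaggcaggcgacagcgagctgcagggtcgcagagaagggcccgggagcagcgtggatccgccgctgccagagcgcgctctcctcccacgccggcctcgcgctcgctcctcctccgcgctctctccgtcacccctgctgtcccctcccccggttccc
Etv6, chr6:134035450-134035699, plus strand: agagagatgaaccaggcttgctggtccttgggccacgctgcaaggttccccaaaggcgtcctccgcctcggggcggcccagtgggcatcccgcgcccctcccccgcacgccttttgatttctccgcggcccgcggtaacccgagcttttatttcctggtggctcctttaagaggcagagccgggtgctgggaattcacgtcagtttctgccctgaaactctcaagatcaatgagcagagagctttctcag
Elk3, chr10:93311160-93311409, minus strand: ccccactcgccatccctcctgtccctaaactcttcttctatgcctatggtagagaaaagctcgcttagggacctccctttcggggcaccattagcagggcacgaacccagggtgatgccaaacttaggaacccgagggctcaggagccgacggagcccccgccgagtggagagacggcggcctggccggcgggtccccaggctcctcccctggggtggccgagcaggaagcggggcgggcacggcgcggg
Erg, chr16:95586601-95586843, minus strand: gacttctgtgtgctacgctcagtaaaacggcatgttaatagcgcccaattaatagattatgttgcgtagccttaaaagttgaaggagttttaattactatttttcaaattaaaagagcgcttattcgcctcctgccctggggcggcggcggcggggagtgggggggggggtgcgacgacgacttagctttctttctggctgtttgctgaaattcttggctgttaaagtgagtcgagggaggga
Spib, chr7:44532088-44532321, minus strand: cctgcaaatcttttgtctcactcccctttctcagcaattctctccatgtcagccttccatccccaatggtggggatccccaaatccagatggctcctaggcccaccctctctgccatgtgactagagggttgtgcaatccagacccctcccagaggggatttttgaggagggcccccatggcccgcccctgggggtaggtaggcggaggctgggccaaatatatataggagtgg

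The 3 upstream sequences under a peak were richer in G and C than the other two. G and C made up 71.6% of the Ets2 stretch, 60.4% of the Etv6 stretch and 67.2% of the Elk3 stretch, against 48.6% for Erg and 57.3% for Spib. Over all 32851 promoter windows of the table, the median GC content was 61.3% in windows touched by a peak in all 4 libraries and 47.0% in the rest. A peak touched 7 of the 10 member windows in all 4 libraries, beside 47.3% of all windows. GC content did not separate the member windows: those of the second start of Elf1 and the innermost start of Erg were touched in all 4 libraries at 44.7% and 46.0%. The Spib window, with no peak, had 58.0%, and the Etv6 window, wholly under a peak, 57.3%.

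Letters of 4 kinds of factor motif were searched in the member windows. The letters CCGGAAGT, the full Ets site, occurred on either strand in 0 of 10 windows and in 3.89% of all windows. The shorter Ets core CGGAA, which the full site contains, occurred in 2 of 10 windows and in 29.9% of all windows. The letters GGAA alone were not searched for. They occur, without the C before them, on either strand of stretches shown above, such as those of Etv6 and Elk3. The GATA letters AGATAA occurred in 1 of 10 windows (11.2% of all), the Runx letters TGTGGT in 0 of 10 (16.8%) and the E-box CAGCTG in 0 of 10 (16.3%). The 3 matches are shown with 10 bases on either side and the match in capitals, on the strand of the gene, because each had a different relation to the peaks.
Gabpa, Ets core, chr16:84835022-84835046, plus strand: gggtaagtgcTTCCGggtccctcag
Erg outermost start, Ets core, chr16:95586565-95586589, minus strand: ttcaggctgtCGGAAtggggacaac
Erg innermost start, GATA, chr16:95459436-95459461, minus strand: tcagggtctcTTATCTctccactccc

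The Gabpa match lay 92 bases before the start, on the opposite strand, and all 25 bases were inside a peak in all 4 libraries. The Erg Ets match lay 14 bases after the outermost start and was outside every peak in all 4 libraries. The Erg GATA match lay 103 bases before the innermost start, with all 26 bases inside a peak in both mutant libraries and 0 inside a peak in both wild-type libraries. That start had a peak within 1 kb in every library, and only the edges of the peak placed the match inside or outside. A match is a description of letters and was not tested as a binding site.

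The 4 peak lists differed in make-up, which touches each count below. Their median peak width was 284 and 302 bp in wild type and 444 and 421 bp in mutant, and the covered length was 72.1, 70.8, 72.3 and 69.3 Mb. The shortest peak was 64, 65, 73 and 87 bp, and the smallest gap between neighbouring peaks 257, 261, 293 and 349 bp. Values of the 4 libraries are given in the order wild-type 1, wild-type 2, mutant 1, mutant 2 from here on. The cell label was checked at 10 genes of DN3 thymocytes, among them Ptcra, Rag1 and Bcl11b, and all 10 had a peak within 1 kb of the start (for Hes1, of either annotated end) in each library. Of markers of other cells, 3, 4, 3 and 3 of 5 B-cell genes, 4, 4, 2 and 2 of 5 myeloid genes, 3 of 5 erythroid and megakaryocytic genes in each library and 4, 3, 3 and 3 of 5 endothelial and stromal genes had one. The defining genes Gata1, Hba-a1, Ms4a1 and Elane had none in any library. Myeloid genes with a peak were fewer in the mutant libraries, where Csf1r and Mpo had none. In wild-type 1 and 2 their fold enrichment over background was low, 2.51 and 2.29 for Csf1r and 2.28 and 2.51 for Mpo. The medians of those lists were 3.33 and 3.27. The mutant lists held fewer peaks in all, and the share of all genes with such a pattern was not counted. The part of other cell types in the results was not tested. Peak lists of bulk cells cannot tell fewer cells with an open region apart from a weaker opening in each cell.

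All 9 members had a peak at or near the start, within 1 kb, in all 4 libraries, as did 66.8% of the 21887 protein-coding genes. For Ets1 and Fli1, as for any other gene without a start site in the promoter table, either annotated end of the gene was used. A peak covered the start base itself in all 4 libraries for 6 of 9 members, the exceptions being Fli1, Erg and Spib. The share of all genes with a peak over the start base was not counted, so 6 of 9 has no background beside it. The authors' fold enrichment of a peak is the library's signal over its local background, and it is used here to describe peaks within their own list. The medians of the lists were 3.33, 3.27, 3.20 and 3.39.

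**Figure D1:**
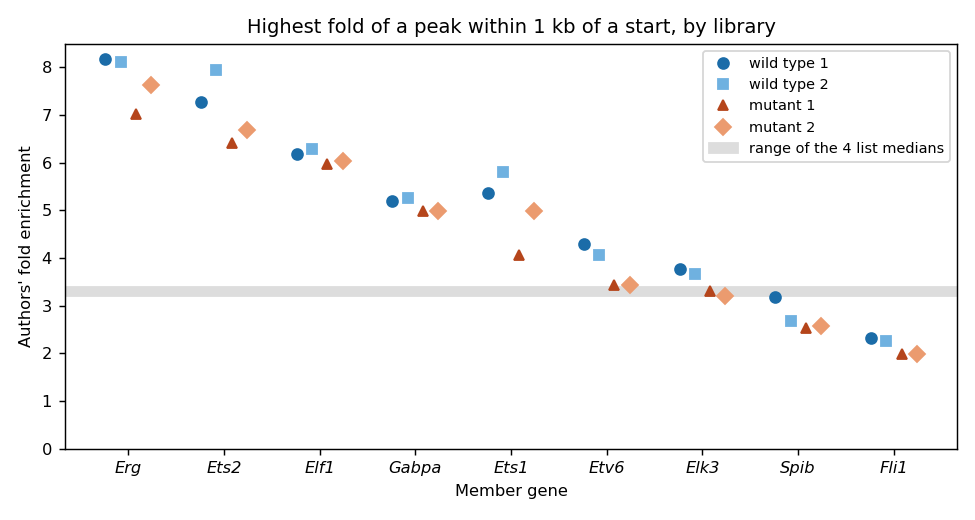
The vertical axis gives the highest fold enrichment, as deposited by the authors, of a peak within 1 kb of a start, for each of the 9 members (horizontal axis) and each of the 4 libraries (symbols); the grey band is the range of the 4 list medians, 3.20 to 3.39. Erg and Ets2 stand highest, between 6.41 and 8.18, and Fli1 lowest, between 1.99 and 2.33. Ets1 and Fli1 are scored at their annotated ends.

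Ets1 (chr9:32636241-32757820) supports the development and survival of T cells, and its start lay under a peak in every library. The fold there was 5.37, 5.81, 4.06 and 4.98, above 76.9%, 83.1%, 66.5% and 76.5% of the peaks of each list. The peaks were 689, 665, 1178 and 982 bp wide, so the mutant lists drew a wider peak over the same end of the gene.

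Fli1 (chr9:32422204-32543432), a factor of blood stem cells and megakaryocytes, had the lowest fold when each member is taken at its highest peak within 1 kb of a start or end. That peak began 784 bp inside the gene from the end that faces Ets1, at chr9:32542153-32542648, with a fold of 2.33, 2.27, 1.99 and 1.99. No more than 19.5% of the peaks of any list had a lower fold. The other end of Fli1 had no peak within 1 kb in any library. Past the 1 kb limit, a region called in all 4 libraries began 1.73 kb inside the end that faces Ets1. It lay at chr9:32539125-32541706, 2582 bp wide, with a fold of 2.85, 2.89, 3.07 and 3.16. The rank of Fli1 holds only for the 1 kb limit at an annotated end.

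Erg (chr16:95359169-95586600), a close relative of Fli1 that maintains blood stem cells, has 3 start sites in the table, and they differed. The outermost start had no peak over it, yet the strongest peak near any Erg start began 595 bp inside it, at chr16:95585014-95585998, with a fold of 8.18, 8.11, 7.03 and 7.62. The middle start had no peak within 1 kb in any library. The innermost start had a weak peak, with a fold of 2.47, 2.53, 1.61 and 2.11, which covered the start base in mutant 1 alone. There mutant 1 had a single peak of 2199 bp, where the peaks of highest fold in the other lists were 259, 197 and 347 bp wide.

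Ets2 (chr16:95702407-95721049) is a factor that MAP kinases activate. Its start peak had the highest fold among members with a single start in the table, of 7.27, 7.95, 6.41 and 6.68, and a −log10 q of 203.51, 175.79, 251.54 and 212.3. At least 89.5% of the peaks of each list had a lower fold. Elf1 (chr14:79481174-79582491), a factor active in lymphoid cells, had a fold of 6.18, 6.28, 5.97 and 6.03 at its first start. A transfer RNA gene, n-TEttc4, and an end of Wbp4 lie in that region too. The second Elf1 start had 4.47, 3.81, 2.75 and 3.01.

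Elk3 (chr10:93247415-93311159) forms ternary complexes with serum response factor and represses many of its targets. Its highest fold within 1 kb of the start was 3.78, 3.67, 3.30 and 3.21, close to the list medians. Etv6 (chr6:134035700-134270158), a repressor needed for blood stem cells in bone marrow, had a wide peak at its start. It measured 1768, 1781, 2647 and 2642 bp with a fold of 4.29, 4.06, 3.44 and 3.44.

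Spib (chr7:44525995-44532087), a relative of PU.1 known from B cells and plasmacytoid dendritic cells, had no peak over its start. The nearest peak began 461 bp inside the gene, with a fold of 3.19, 2.69, 2.54 and 2.58, a level below the median of each list. The other region in the gene, chr7:44527464-44528593, was stronger, with 5.11, 5.19, 4.54 and 4.69, above those medians. Gabpa (chr16:84834891-84863783) encodes the DNA-binding subunit of the GA-binding protein, which serves mitochondrial and housekeeping genes. Its start lay in a region of 2118 bp shared with Atp5j, with a fold of 5.20, 5.25, 4.98 and 4.98.

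The loci held fewer peaks in the mutant lists, with a covered length that was about the same. Peaks numbered 427, 403, 299 and 294, or 415 ± 17.0 in wild type and 296 ± 3.54 in mutant (SD, n = 2 each). The difference of 118 peaks had an exact two-sided permutation p of 0.33, the smallest that 2 against 2 libraries allow. The ratio of the means was 1.40, beside 1.36 for all peaks of the lists. Peaks covered 10.2%, 9.32%, 10.5% and 9.96% of the loci, or 9.73 ± 0.588% in wild type and 10.2 ± 0.385% in mutant, with an exact permutation p of 0.667. The groups overlapped in covered share and did not overlap in number of peaks. With equal numbers of peaks taken from each list, the difference in number fell to 5.5 (exact permutation p = 1).

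**Figure D2:**
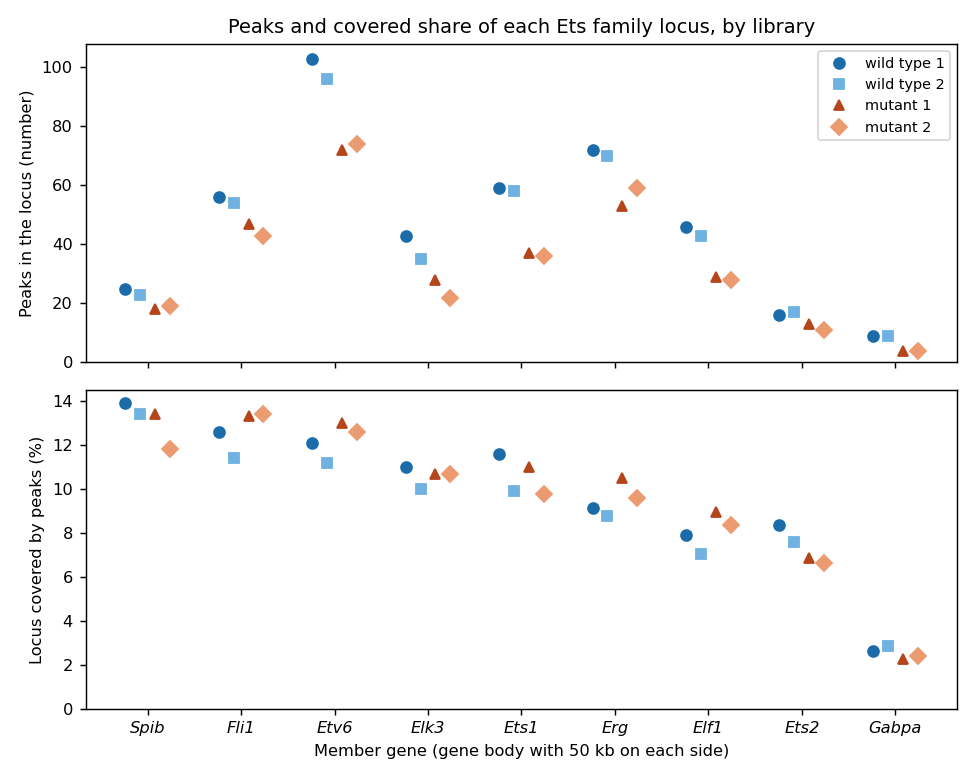
The upper panel gives the number of peaks and the lower panel the percent of the locus covered by peaks, for each member gene with 50 kb on either side (horizontal axis) and each of the 4 libraries (symbols). Both wild-type libraries had more peaks than both mutant libraries in 9 of 9 loci, whereas the covered share went either way; Spib stands highest in covered share in all libraries but mutant 2, where Fli1 and Etv6 lie above it, and Gabpa lowest in all 4.

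Both wild-type libraries had more peaks than both mutant libraries in 9 of 9 loci, which was also so in 77.2% of the 19832 protein-coding gene loci with a peak. The covered share was higher in both wild-type libraries for 3 members, Ets2, Spib and Gabpa, beside 35.5% of all such loci. It was higher in both mutant libraries for 4 members, Fli1, Erg, Elf1 and Etv6, beside 25.8%. The libraries overlapped for Ets1 and Elk3. The direction of the covered share therefore differed among members. It also depended on the strength of the peaks: with peaks of at least 4-fold only, wild type minus mutant changed from -0.494 to 0.72 percentage points.

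Spib had the highest covered share in all libraries but mutant 2, with 13.9%, 13.4%, 13.4% and 11.8% of its locus, above at least 89.9% of protein-coding gene loci in each library. Spib itself is only 6.09 kb long, and 2 of the 23 regions of its locus lay in the gene. The widest region, 2185 bp at chr7:44547111-44549295, reached the end of Pold1, a DNA polymerase subunit. The gene body was covered to 22.3%, 21.5%, 24.0% and 22.0%, and the flanks to 13.4%, 13.0%, 12.8% and 11.1%. As the gene is so short, most of the covered length of the locus lay in its flanks.

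Fli1 had 12.6%, 11.4%, 13.3% and 13.4% covered, the highest share in mutant 2 and the next after Spib in the other libraries. The gene body was covered to 15.9%, 13.5%, 16.9% and 18.1%, and the 50 kb flanks to 8.48%, 8.81%, 8.83% and 7.81%. Etv6 had 12.1%, 11.2%, 13.0% and 12.6% of its locus covered. There the contrast was larger, with 15.4%, 13.8%, 16.4% and 16.1% of the gene body and 4.43%, 4.92%, 4.97% and 4.23% of the flanks. Open chromatin in these 2 loci lay mainly inside the gene.

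Ets1 and Elk3 followed. Ets1 had 11.6%, 9.89%, 11% and 9.79% of its locus covered. Elk3 had 11%, 10%, 10.7% and 10.7%. Wild-type 1 was highest for both genes, and the other wild-type library lay among or below the mutant ones.

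Erg had 9.15%, 8.76%, 10.5% and 9.58% covered and Elf1 7.92%, 7.06%, 8.97% and 8.34%. Like Fli1, both were covered more in their gene body than in the flanks. That order held in each library for every member but Ets2, whose body had 6.40% and flanks 7.82% in wild-type 2. For Elf1 the body reached 12.2%, 10.7%, 14.2% and 13.3% against 3.54%, 3.34%, 3.65% and 3.29% of the flanks. Ets2 had 8.34%, 7.60%, 6.88% and 6.63% covered. Gabpa was the barest locus, with 2.63%, 2.86%, 2.28% and 2.38%, below the median of protein-coding gene loci, 5.28%, 5.08%, 5.15% and 4.98%. It held 9, 9, 4 and 4 peaks, and the region at its start was the only one inside the gene.

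Fli1 and Ets1 lie side by side on chromosome 9, 92.8 kb apart. The 800 kb around them held 135 regions, 85 of them called in all 4 libraries. Regions called in all 4 libraries stood at 20.6 per 100 kb in Fli1, 18.3 between the genes, 17.3 in Ets1 and 4.52 in the 442 kb beyond Ets1. By number, the space between the genes was thus as densely open as the genes themselves. Peaks covered 11.1%, 11.1%, 12.3% and 11% of it.

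**Figure D3:**
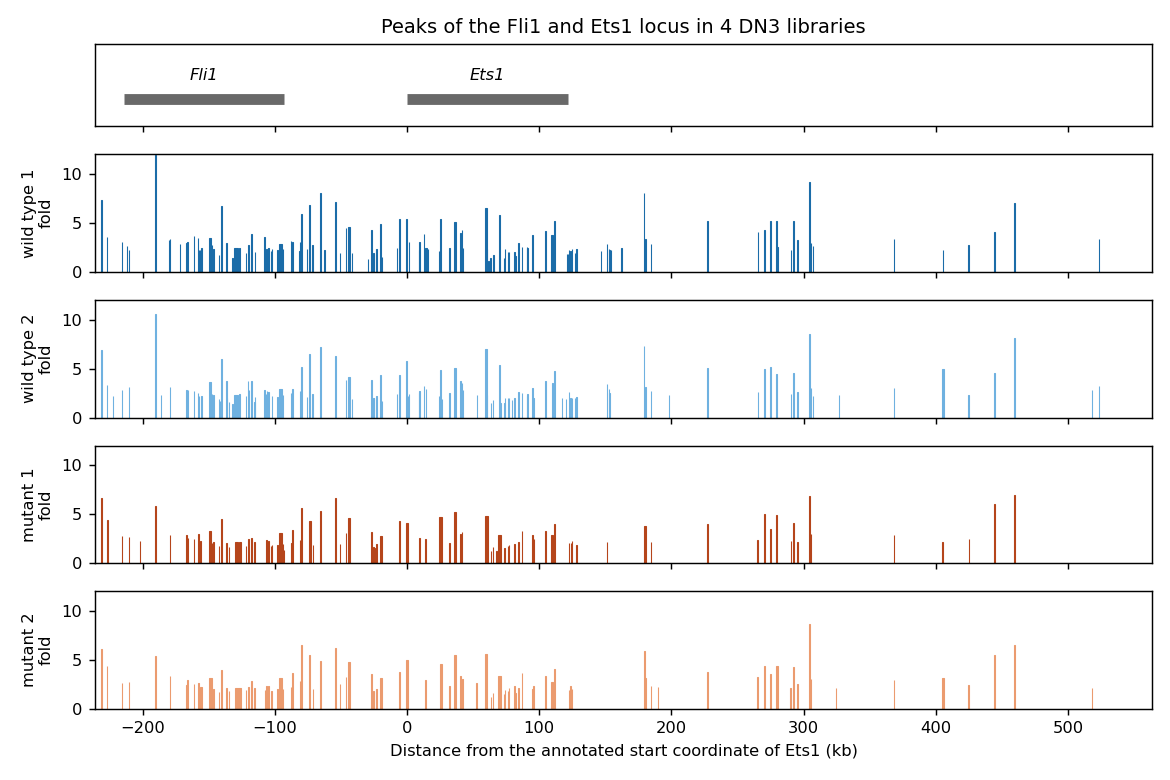
Peaks of the 4 libraries (panels) over the 800 kb around Fli1 and Ets1: the horizontal axis is the distance in kb from the annotated start coordinate of Ets1, bars are as wide as the peaks, and their height is the authors' fold enrichment. Peaks are dense from Fli1 to the end of Ets1, sparse beyond it, and gather again 143 to 184 kb past the Ets1 end in every library.

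The sparse stretch beyond Ets1 held a run of open regions. At chr9:32901214-32941951, 143 to 184 kb past the end of Ets1, 9 regions called in all 4 libraries followed each other, and they were 350 to 1142 bp wide. Peaks covered 11.7%, 10.8%, 14.1% and 14.2% of these 40.7 kb, near the 13.3%, 11.3%, 13.3% and 12.1% of the Ets1 gene body. The run was chosen after the values were seen, as the one with most regions when regions called in all 4 libraries are joined over gaps of at most 10 kb. A region called only in wild type, chr9:32942987-32943138, lies just past it. Its strongest region, chr9:32940227-32941179, had a fold of 9.13, 8.55, 6.82 and 8.66. That is above the Ets1 start in each library.

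Inside Ets1 the strongest region away from gene ends by the lowest of its 4 folds was chr9:32671793-32673006, 35.6 kb from the start coordinate, with 5.08, 5.04, 5.26 and 5.52. The widest, chr9:32705335-32707214, had 5.80, 5.40, 2.86 and 3.33. Both were called in all 4 libraries. No difference in fold between lists was tested. The region with the highest fold in the locus in all libraries but mutant 1, chr9:32695541-32697184, had 6.53, 7.02, 4.77 and 5.54, with peaks of 922, 926, 1644 and 1435 bp. Regions with the highest fold of a locus in any library were chosen after the values were seen.

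In Fli1 the widest region measured 3244 bp, at chr9:32505702-32508945, with a fold of 2.44, 2.34, 2.15 and 2.15. The strongest region of the locus away from gene ends lay outside Fli1, within Kcnj1 and Gm31755. It was chr9:32388225-32388446, with 7.74, 7.75, 6.41 and 6.38. The highest fold in the wild-type lists came from a region in Fli1 far narrower than the widest, chr9:32445739-32446448, with 11.92, 10.56, 5.84 and 5.43. That region is 0.374 kb from an end of Gm22060. Its peaks were 198, 192, 651 and 704 bp wide. At the same place the peaks drawn were thus shorter in the wild-type lists than in the mutant lists. The part of the drawn width in the fold was not tested. The mutant lists had higher folds elsewhere in the locus, 6.65 and 6.22 at chr9:32581602-32582526 between Fli1 and Ets1, where the wild-type lists had 7.12 and 6.33.

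Erg and Ets2, the other neighbouring pair, lie 116 kb apart on chromosome 16. Regions called in all 4 libraries stood at 15.8 per 100 kb in Erg, 8.64 between the genes and 16.1 in Ets2. Unlike the space between Fli1 and Ets1, the one between Erg and Ets2 was covered about as thinly as the outer flank before Erg. It had 6.59%, 6.96%, 7.20% and 6.35% covered, and the flank 7.15%, 6.87%, 7.35% and 6.95%. The outer flank beyond Ets2 was covered more, to 11.1%, 10.7%, 9.78% and 10.6%. By number the space between the genes was sparser than either flank, each with 14.0 regions called in all 4 libraries per 100 kb.

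**Figure D4:**
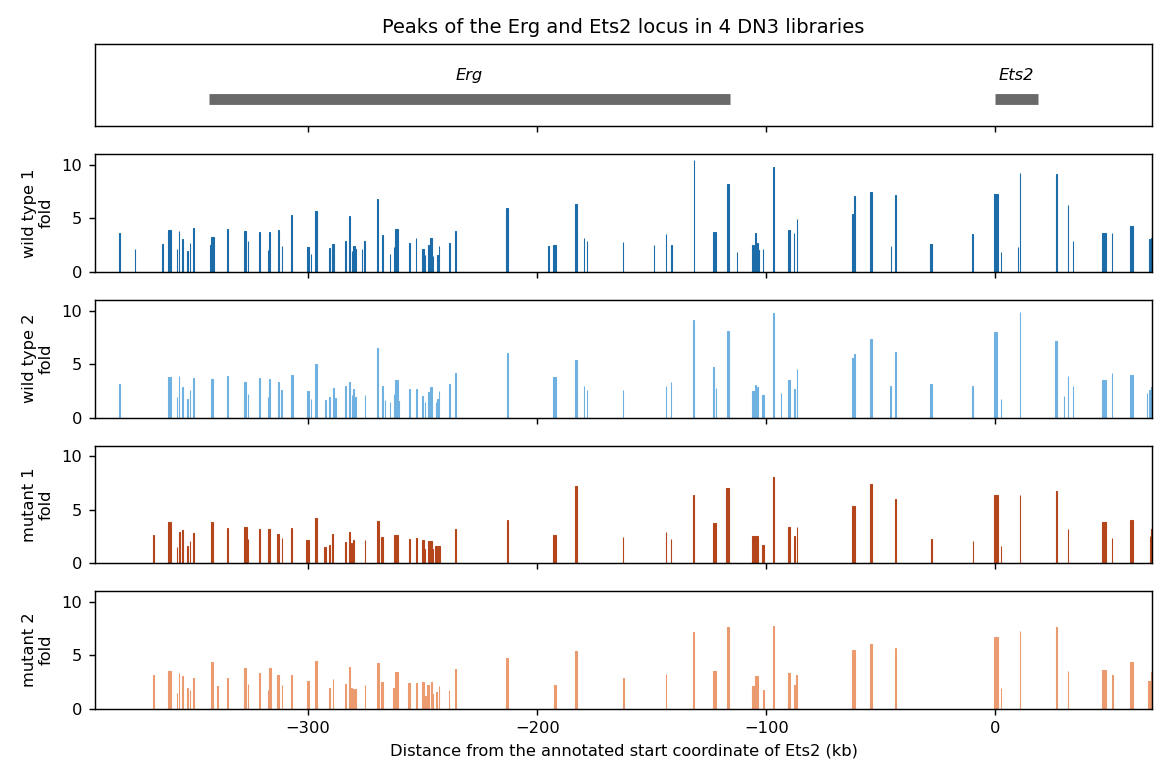
Peaks of the 4 libraries (panels) from 50 kb before Erg to 50 kb beyond Ets2: the horizontal axis is the distance in kb from the annotated start coordinate of Ets2, bars are as wide as the peaks, and their height is the authors' fold enrichment. Most peaks lie within Erg, and tall peaks stand at the Ets2 start and 18.8 kb beyond the Erg end in every library.

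The strongest Erg region away from gene ends lay 18.8 kb outside the gene, on the side of the outermost start, at chr16:95605405-95605766. Its fold was 9.84, 9.74, 8.07 and 7.71. Inside Erg, chr16:95570423-95570905 had 10.48, 9.16, 6.41 and 7.14, the highest fold of the locus in wild-type 1 only. At least 90.8% of the peaks of each list had a fold lower than this second region, in a gene with no peak over its outermost start.

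For Ets2 the strongest region away from gene ends lay 7.62 kb beyond the gene, at chr16:95728669-95729332, with 9.11, 7.14, 6.78 and 7.67. A region inside Ets2, chr16:95713108-95713394, had 9.29, 9.82, 6.40 and 7.25. These 2 regions reached folds near or above that of the Ets2 start.

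Elf1 had its strongest region away from gene ends inside the gene, at chr14:79558917-79559544, with 6.01, 5.92, 5.47 and 5.47. Its widest region, 2554 bp at chr14:79521097-79523650, had a low fold of 2.52, 2.53, 2.18 and 2.34. The highest fold of its locus, 10.58, 10.65, 9.17 and 9.62, was that of a region at an end of Kbtbd6, chr14:79451653-79452617. Elk3 had 4.52, 4.18, 4.52 and 4.48 at its strongest region away from gene ends, chr10:93261116-93262713. Elf1 and Elk3 both therefore carried an open region in the gene body that stood near the fold of their start peak or above it. A shorter Elk3 region, chr10:93291806-93292146, had 5.82, 6.12, 2.88 and 3.45, with peaks of 167, 164, 317 and 319 bp.

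Etv6 held the widest region of all members, 3592 bp at chr6:134183737-134187328, with a fold of 2.62, 2.61, 2.36 and 2.39. The lists had 3, 5, 3 and 2 peaks in it, so it is a product of merging, and no list held it as a single peak. The strongest Etv6 region away from gene ends, chr6:134122909-134123439, had 7.74, 7.74, 5.72 and 5.98, above the fold of the Etv6 start. Outside the gene, chr6:134293898-134294657 had 8.17 in wild-type 1, and 5.40, 4.63 and 5.24 in the other lists.

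The tallest peak of any member locus belonged to a neighbour's side of Spib. The region chr7:44560863-44561352 lies outside genes, 6.89 kb from the end of Nr1h2, and had 13.56, 12.21, 10.58 and 11.30. At least 99.6% of the peaks of each list had a lower fold. It is 28.8 kb beyond Spib. Around Gabpa the strongest region lay 15.3 kb beyond the gene, at chr16:84879132-84879612, with 9.58, 8.30, 5.97 and 6.25.

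Of the 424 regions, 252 were called in all 4 libraries (59.4%), beside 56.7% of all regions. Both wild-type libraries had 319 regions, and 44 of these had no mutant peak (13.8%), beside 15.0% genome-wide. Both mutant libraries had 259 regions, and 1 of these had no wild-type peak (0.386%), beside 1.75%. The remaining 127 regions were called in other combinations of libraries. The shares of the members were near those of the genome for regions in all 4 libraries and for those called only in wild type. With equal numbers of peaks taken from each list, 12 regions lacked any mutant peak and 17 lacked any wild-type peak, beside 4.92% and 6.99% genome-wide. The excess on the wild-type side was thus not kept, in the members as in the genome.

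**Figure D5:**
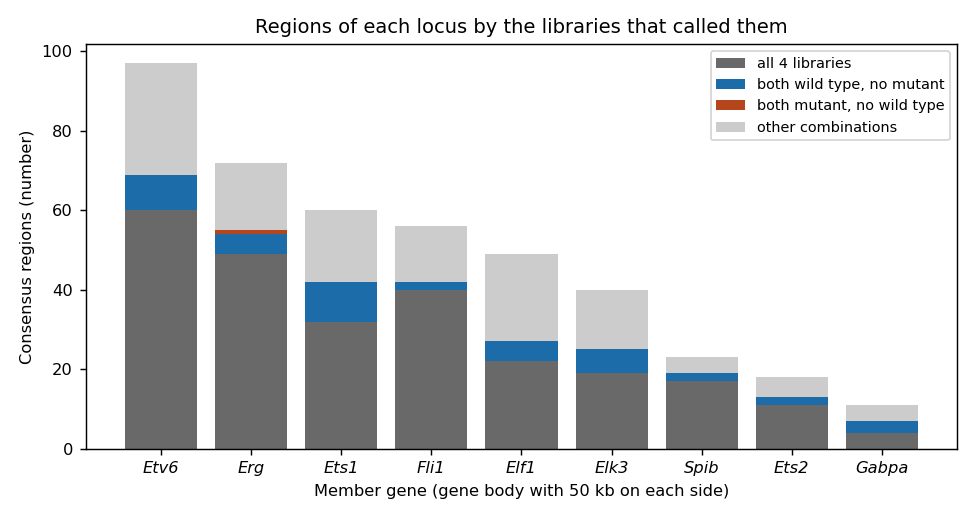
Stacked bars give the number of consensus regions in each member locus (horizontal axis), split by the libraries that called them: all 4, both wild-type and no mutant, both mutant and no wild-type, and other combinations. Regions of all 4 libraries are the largest class in 9 of 9 loci or tie with another, and the single region called only in mutant is in the Erg locus.

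Regions called only in wild type were short and weak. They were 89 to 429 bp wide, with a median of 172.5 bp, where the regions of all 4 libraries had a median of 709.5 bp. Genome-wide these medians were 176.0 and 608.0 bp. A region is as wide as its merged peaks, so one with peaks of all 4 lists tends to be wider by construction. The fold of regions called only in wild type ran from 1.38 to 3.97. Of the 82 regions with a fold of at least 4 in both wild-type lists, 0 lacked a mutant peak, beside 0.340% genome-wide. The nearest mutant peak was 150 to 14304 bp away, with a median of 1395.5 bp, and was within 1 kb for 17 of the 44.

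These regions were spread over all 9 loci. Ets1 had 10 among 45 regions called in both wild-type libraries, Etv6 9 of 75, Elk3 6 of 27, Erg 5 of 57 and Elf1 5 of 31. Gabpa had 3 of 7, Fli1 2 of 43, Ets2 2 of 15 and Spib 2 of 21. Ets1 and its neighbour Fli1 thus stood at 22.2% and 4.65%, but the counts are small and the difference was not tested.

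The strongest of them lay next to Gabpa and in Ets1. The Gabpa region, chr16:84882236-84882337, was 102 bp wide with a fold of 3.97 and 3.91, and the nearest mutant peak was 2623 bp away. The Ets1 region, chr9:32649239-32649458, was 220 bp wide with 3.91 and 3.20, 13.0 kb from the start coordinate and 681 bp from a mutant peak. The Erg region chr16:95319940-95320196 was the most isolated, with 3.65 and 3.09 and 14304 bp to the nearest mutant peak.

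The strongest such region of the other loci had folds between 2.09 and 3.40. For Elk3 it lay in Cdk17, with 3.40 and 2.94, and for Spib in Napsa, with 2.73 and 3.05. For Ets2 it had 2.93 and 2.97, for Elf1 2.68 and 2.98, for Fli1 2.37 and 2.09 and for Etv6 2.34 and 2.45. Most of these values lie below the median fold of their list.

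The single region called only in mutant was chr16:95334501-95334902, 402 bp wide and 24.3 kb from the 3′ end of Erg, outside genes. Its fold was 2.64 and 3.19, below the median of each mutant list, and the nearest wild-type peak was 3803 bp away.

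Wide consensus regions of the member loci had a peak in every library. Of the 424 regions 16 were at least 2 kb wide (3.77%), beside 2.05% of all regions, and all 16 were called in all 4 libraries, as were 96.9% of all regions of that width. Etv6 had 4 of them, Fli1, Erg and Elk3 3 each, and Elf1, Spib and Gabpa 1 each. Ets1 and Ets2 had none, their widest regions being 1880 and 1687 bp. Merging the peaks of more lists can widen a region, so its width and the number of lists that called it are not independent.

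For comparison, 18 other Ets family genes were examined, among them Spi1, which encodes PU.1. A peak within 1 kb of the start, or of either annotated end for Etv4, Ehf and Spi1, was present in 16, 16, 15 and 15 of them, and in all 4 libraries for 14. Of all protein-coding genes, 66.8% had one in all 4 libraries. Spic and Spdef had none in any library, Ehf had none in mutant 1 and Etv3l none in mutant 2. Their loci held 361 regions, of which 223 were called in all 4 libraries (61.8%). Of 285 regions in both wild-type libraries 40 had no mutant peak (14.0%), and of 227 in both mutant libraries 2 had no wild-type peak (0.881%). The Spi1 locus itself had 6 of 25 regions called only in wild type (24.0%), and single loci ran from 0.00% to 33.3%. The shares over the 18 loci together are close to those of the 9 members, and no difference between the sets was tested.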

How the data were processed

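ATAC-seq peak lists of 4 libraries were used, called per library. Per the submitters' processing notes, the authors used MACS2 2.1.1, SAMtools 1.7, Bowtie2 2.3.3.1 and cutadapt 1.16 with mm10 (GRCm38). How these were set and ordered, and whether reads were shifted to the centre of the transposase, is not given in the sources used here. The deposited score of a peak is its −log10 q times 10. The deposited fold enrichment, a ratio, and the deposited −log10 p and −log10 q are the authors' own values for each peak, and serve here for description, ranking and filtering inside their own list. Folds of the 4 lists stand side by side, and no difference between them was tested. Such lists hold no read counts, so depth is unknown and neither a count model nor an interval was possible; where a library has no peak, opening was not detectable at its depth.

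Only chromosomes 1 to 19, X and Y were kept, which left out 0.112% to 0.131% of each list. A library had a consensus region if a peak overlapped it by at least 1 bp. A region counts as called only in wild type with a peak in each wild-type library and none in either mutant library, and the reverse for mutant. Genes and promoters came from RefSeq (GRCm38.p6); exons were not annotated. Genes without a start site in the promoter table were scored at either annotated end. Fold of a region is that of its highest peak. Named regions were the one at each start, the widest, the one with the highest lowest fold of the 4 libraries over 1 kb from any gene end, all called only in mutant, and per member the strongest called only in wild type. Regions with the highest fold of any library and the run beyond Ets1 were added after the values were seen. The members and lists were chosen with earlier results of these data known. Libraries were compared with a two-sided exact permutation test. Alternatives were −log10 q of at least 5, fold of at least 4, equal numbers of peaks, a common minimum length and joining gap, 10 kb flanks, 50% cover, other start distances, each library left out, and a replicate block. The code was tested on simulated data. Python 3.11.15, numpy 2.4.6, pandas 2.3.3, scipy 1.17.1 and matplotlib 3.10.9 were used.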

Additional observations from a re-analysis of the deposited data

How the results depend on the processing

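Wild type had more peaks in the member loci under all 10 alternatives run for that difference, but the difference fell from 118 to 37.5 at a −log10 q of at least 5, 39 at a fold of at least 4 and 5.5 with equal numbers of peaks (exact permutation p = 1). Regions called only in wild type numbered 44 as reported, 8 at a −log10 q of at least 5 (4.12% of 194, beside 10.3% genome-wide), 25 at a fold of at least 4 (30.5% of 82, beside 19.7%), 12 with equal numbers of peaks (5%, beside 4.92%) and 28 within 10 kb of the genes. The fold limit also removed mutant peaks below 4-fold. In the full lists, 0 of the 82 regions with a fold of at least 4 in both wild-type lists lacked a mutant peak. Leaving out 1 library gave 55 to 96 regions called only in wild type, the highest without wild-type replicate 2. Their shares were 16.7% to 25.1%, beside 19.3% to 25.4% genome-wide. Regions called only in mutant numbered 1 as reported, 2 of 189 at the stricter q (genome-wide 1.72%), 17 of 259 with equal numbers of peaks (6.99%), 3 of 253 with 1 minimum length and 1 joining gap for all lists (2.20%), 0 within 10 kb and 17 of 224 when peaks had to cover 50% of a region (7.46%). Leaving out 1 library gave 4 to 9 regions called only in mutant, of 259 to 296, beside 2.56% to 4.11% genome-wide. With a library left out, the rule for either class asks for 1 library less, so such counts tend to rise by construction. Their rise therefore does not show dependence on a given library. Requiring a fold of 4 left 46 regions called in all 4 libraries in place of 252, left 5 members in place of 9 with a start peak, and turned the covered difference from -0.494 to 0.72 percentage points (exact permutation p = 0.33). With the replicate number as a block, the covered difference was -0.494 (pairs -0.351 and -0.638) and the difference in peaks 118 (pairs 128 and 109), each with an exact paired p of 0.5, the smallest possible; the titles give only the numbers, with no shared animal or day. Without single libraries the difference in peaks was 106 to 130 and that in covered share -0.91 to -0.0785. Causes of these shifts were not tested. Unknown depth and the differing shortest peak and joining gap of the lists limit every count.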
